A study of Homo sapiens with 12 samples.

Results

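Kelly cells in which a doxycycline-inducible short hairpin RNA (shRNA) against RCOR1 had been switched on were compared with the same cells left untreated. The comparison was defined by the sample labels and holds 4 of the 12 libraries of the series: 2 induced and 2 untreated libraries of the shRCOR1 line, paired by replicate number. Kelly is an established human neuroblastoma line with an amplified MYCN gene. The induced cells received 2 µg/mL doxycycline; the titles, the time label and the design give 72 h, while the treatment protocol speaks of 24 or 48 h, so the length of the induction is uncertain. The untreated cells carry the same shRNA cassette without doxycycline. The other 8 libraries come from Kelly cells with an inducible shRNA against RCOR2 (shRCOR2) or with a control shRNA (shCTRL), untreated or induced in the same way, with 2 libraries in each of the 4 groups. The labels do not say whether a line is 1 clone or whether replicates are separate cultures, so p-values measure only the spread between these samples, which may be technical. Doxycycline was given to all induced groups and to no untreated group, so a difference within the shRCOR1 line holds both the shRNA and the drug, and the shCTRL line shows the change measured with a control shRNA.

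RCOR1 encodes RCoR1 (CoREST), a scaffold protein that holds the histone demethylase KDM1A (LSD1) together with the histone deacetylases HDAC1 and HDAC2 and brings them to nucleosomes. The complex removes active marks from histone H3 and was first known as a corepressor of REST, the factor that keeps neuronal genes silent outside neurons. RCOR2 and RCOR3 are related scaffolds, and in neuroblastoma KDM1A works beside MYCN and the transcription factors of the adrenergic, neuron-like cell state.

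Abundance was measured as TPM (a share of all transcripts, corrected for gene length), and changes are differences of log2(TPM + 1), induced minus untreated, with the standard error (SE). A gene was called when limma's test, fitted over all 12 libraries, gave a Benjamini-Hochberg adjusted p under 0.05 over the 16842 genes tested. That fit held the group means and left the pairing by replicate number out. An alternative fit added the replicate number as a block, and its results are marked as such. A gene not called in the main fit was not shown to be unchanged. The files hold no read counts; judged from coverage divided by FPKM, the deepest of the 4 libraries, untreated replicate 1, was 2.08 times as deep as the shallowest, untreated replicate 2. Mitochondrial genes took 15.8% and 19.2% of TPM in the untreated replicates 1 and 2 and 13.3% and 16.5% in the induced ones. Because TPM is a share, a fall in the mitochondrial share raises the share of other genes. The defining markers of the line were present: the adrenergic markers summed to 9635 and 9687 TPM untreated and to 6531 and 5993 TPM induced, with 4 of 11 called lower, GATA3, ISL1 and CHGA among them. All 7 leukocyte markers stayed below 1 TPM in each of the 4 libraries, and none of the 5 Schwann cell precursor or 6 fibroblast markers tested was called. Epithelial markers summed to 8.23 and 8.91 TPM untreated and to 16.8 and 30.4 TPM induced, with 1 of 4 called (EPCAM, from 0.286 and 0.309 to 3.18 and 4.13 TPM), and 1 of 3 endothelial markers was called (VWF, from 0.661 and 0.822 to 1.47 and 2.54 TPM). Whether these markers bear on the results below was not tested.

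The targeted transcript was read first. RCOR1 (ENSG00000089902.10, chromosome 14, 102592649 to 102730561, GRCh38/hg38) stood at 8.32 and 9.08 TPM before and 4.795 and 5.07 TPM after induction. The induced libraries lay below the untreated ones, as in 3992 of all 16842 genes tested. Of the untreated mean 56.7% was left (8.702 ± 0.539 against 4.93 ± 0.191 TPM, SD, n = 2 each; −0.71 ± 0.12, limma adjusted p = 0.0109). That call ended whenever 1 of the 4 libraries was left out, with adjusted p from 0.061 to 0.0884 and changes from −0.77 to −0.65, and in a fit of the shRCOR1 line alone (limma adjusted p = 0.0823). With all 4 libraries and the replicate block, RCOR1 was called as lower in the shRCOR1 line (limma adjusted p = 0.00241). In shCTRL cells RCOR1 read 10.7 and 8.99 TPM without and 8.83 and 9.15 TPM with doxycycline. The difference between both changes was called once the replicate number entered as a block (limma adjusted p = 0.0452) but missed the threshold otherwise (−0.60 ± 0.17, limma adjusted p = 0.158).

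The paralog RCOR2 (chromosome 11, 63911230 to 63917164) also fell, from 51.4 and 50.5 to 25.99 and 26.3 TPM (−0.94 ± 0.11, limma adjusted p = 0.00278), a larger change than that of the targeted gene itself, although the difference between the paralogs' changes was not tested. RCOR2 was not called different from the shCTRL change (−0.75 ± 0.16, limma adjusted p = 0.069) until the replicate number was a block (limma adjusted p = 0.0163). Matches of the RCOR1 shRNA to other transcripts, RCOR2 included, were not examined, since its sequence was not used here. RCOR3 was not called (36.7 and 44.4 TPM before and 32.8 and 40.1 TPM after induction, −0.15 ± 0.21, limma adjusted p = 0.736). Across the list of the CoREST complex and its partners, 0 of 21 genes tested rose and 3 fell, RCOR1 and RCOR2 among them. Among all genes tested, 4.98% rose and 3.64% fell. Of the enzymes, KDM1A read 311 and 320.0 TPM before and 282 and 270.3 TPM after induction, HDAC1 112 and 124 TPM before and 101 and 113 TPM after induction and HDAC2 141 and 149.8 TPM before and 113 and 103 TPM after induction. None of these 3 was called, and with the block KDM1A and HDAC2 were (limma adjusted p = 0.0335 and 0.0252, and 0.17 and 0.0699 without). REST, the partner that binds DNA, read 1.15 and 1.81 TPM before and 3.17 and 7.06 TPM after induction and was called only with the replicate block (1.24 ± 0.53, limma adjusted p = 0.0107 with the block and 0.196 without).

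In all, 838 genes rose (4.98% of the genes tested) and 613 fell (3.64%) in the induced shRCOR1 cells. Of these, 309 and 139 changed by at least 2-fold and 64 and 3 by at least 4-fold. The shares over all genes tested, without and with the block, are the background for the list counts below. The lists were chosen with earlier results of these data known and hold some of the largest changes. Their counts and medians are therefore descriptions only. Once replicate numbers entered the fit as a block, the counts were 2590 rises (15.4% of the genes tested) and 2030 falls (12.1%). Rises made up 57.8% of the calls, but 46.6% (566 against 649) when mitochondrial genes were left out of TPM. In the shCTRL line no gene was called by limma (938 at an unadjusted p under 0.05, and 10 called with the block). The shRCOR1 change was higher than the shCTRL change for 142 genes (0.843%) and lower for 74 (0.439%), or 1110 (6.59%) and 602 (3.57%) with the block. Higher differences made up 65.7% of these calls, and 55.5% with mitochondrial genes left out. Of the 838 rises, 140 also exceeded the shCTRL change, and of the 613 falls 74 went below it. The 216 differences became 26 without untreated shRCOR1 replicate 1, 27 without replicate 2, 117 without induced replicate 1 and 43 without induced replicate 2; leaving out shCTRL libraries gave 41 (either untreated), 173 and 136 (induced replicates 1 and 2), and a fit of the shRCOR1 and shCTRL lines alone 18. The calls depend on all 4 libraries: 326 genes were called without untreated replicate 1, 387 without untreated replicate 2, 694 without induced replicate 1 and 431 without induced replicate 2. Of 216 called genes considered by name here, 79 kept their call in all 4 of these fits and 137 lost it in at least 1.

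**Figure D1:**
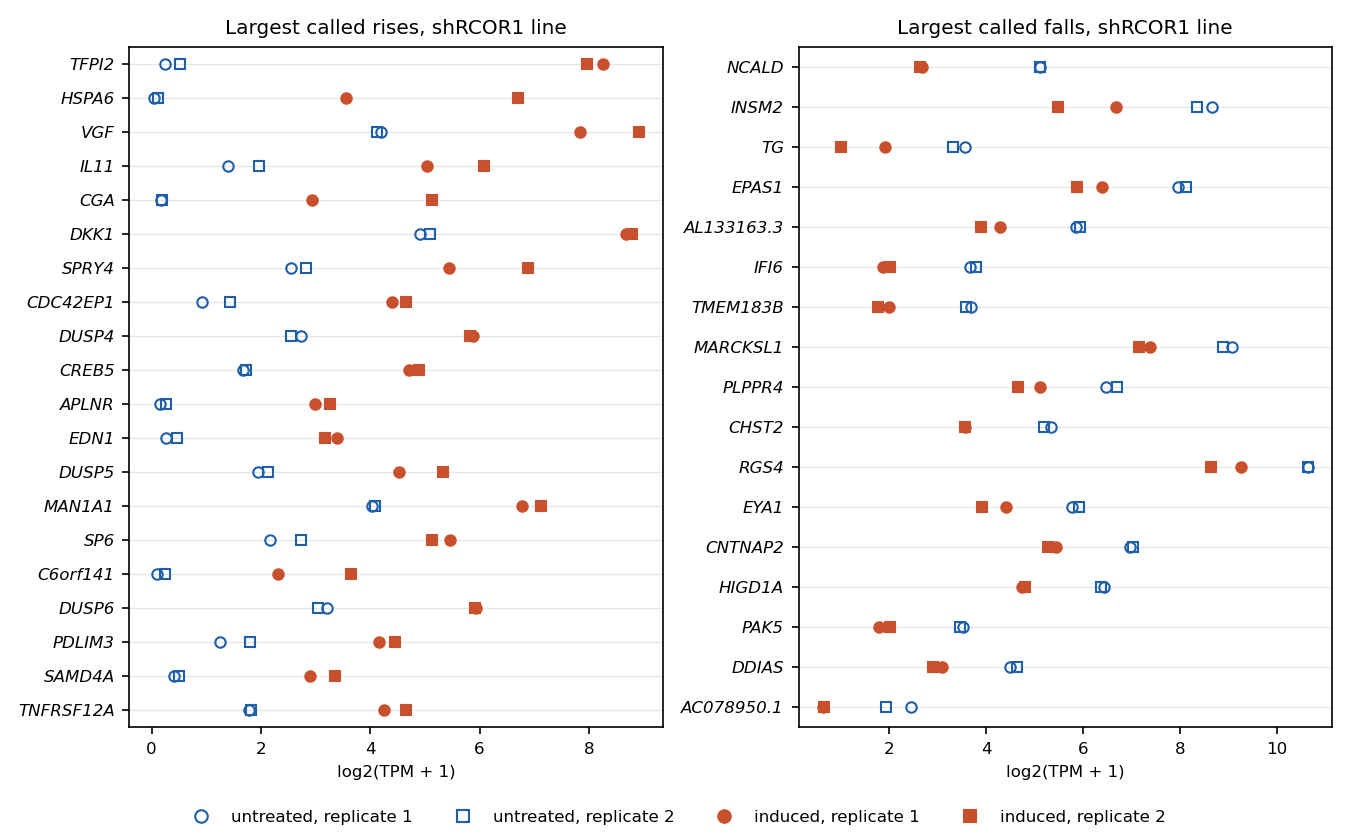
Abundance, as log2(TPM + 1), of genes with the largest called rises (left) and falls (right) in the shRCOR1 line, 1 symbol per library. Open blue symbols are the untreated libraries and filled orange symbols the induced ones, circles for replicate 1 and squares for replicate 2; TFPI2 leads the rises and NCALD the falls, and the groups do not overlap because that was required of the genes shown.

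The largest rise was in TFPI2 (ENSG00000105825.14, chromosome 7, 93885396 to 93890753), a Kunitz-type inhibitor of serine proteases in the extracellular matrix, at 0.188 and 0.435 TPM before and 304 and 249 TPM after induction (7.72 ± 0.17, limma adjusted p = 2.68e-07). It was near 0 in every other group of the series: 0.165 and 0.197 TPM without and 0.270 and 0.142 TPM with doxycycline in shCTRL cells and 0.304 and 0.295 TPM without and 0.368 and 0.156 TPM with doxycycline in shRCOR2 cells. The interaction tests against both lines called it (7.70 ± 0.24, limma adjusted p = 5.41e-06 against shCTRL; 7.77 ± 0.24, limma adjusted p = 4.98e-06 against shRCOR2). HSPA6, a stress-inducible heat shock protein that most resting cells lack, read 0.0258 and 0.0856 TPM before and 10.8 and 103 TPM after induction, and its change ran from 3.48 without induced replicate 2 to 6.63 without induced replicate 1. CGA, the alpha subunit shared by the glycoprotein hormones, read 0.133 and 0.147 TPM before and 6.61 and 34.2 TPM after induction, with changes of 2.74 and 4.95 in the same fits. The calls of HSPA6 (without either untreated library) and CGA (without untreated replicate 1) were lost in fits with 1 library fewer. Both genes were near 0 in the untreated libraries and several-fold higher in induced replicate 2 than in replicate 1.

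CGA, VGF, PDLIM3, HSPA6 and IL11 were among the 20 largest rises. Their promoters are shown because these promoters hold letters that match response elements near the start sites. The 250 bases before the annotated start are printed, 5′ to 3′ along the gene, from RefSeq on GRCh38.p14. Capitals mark the cyclic AMP response element TGACGTCA in CGA, VGF and PDLIM3, the AP-1 element TGACTCA (printed as its reverse complement TGAGTCA) in HSPA6 and IL11, and the heat shock element TTCNNGAA in HSPA6. CGA lies at chr6:87095107-87095356, minus strand, VGF at chr7:101165570-101165819, minus strand, PDLIM3 at chr4:185535508-185535757, minus strand, HSPA6 at chr1:161524290-161524539, plus strand, and IL11 at chr19:55370464-55370713, minus strand.
CGA: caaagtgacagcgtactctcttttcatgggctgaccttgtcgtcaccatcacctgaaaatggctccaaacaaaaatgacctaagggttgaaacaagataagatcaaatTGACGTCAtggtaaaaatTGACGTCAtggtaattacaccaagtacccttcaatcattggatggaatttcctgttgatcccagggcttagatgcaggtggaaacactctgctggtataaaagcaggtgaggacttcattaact
VGF: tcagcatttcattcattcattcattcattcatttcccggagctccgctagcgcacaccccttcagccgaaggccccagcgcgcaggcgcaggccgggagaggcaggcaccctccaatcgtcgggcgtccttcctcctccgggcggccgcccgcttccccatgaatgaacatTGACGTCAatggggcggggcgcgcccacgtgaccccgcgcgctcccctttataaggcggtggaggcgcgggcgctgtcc
PDLIM3: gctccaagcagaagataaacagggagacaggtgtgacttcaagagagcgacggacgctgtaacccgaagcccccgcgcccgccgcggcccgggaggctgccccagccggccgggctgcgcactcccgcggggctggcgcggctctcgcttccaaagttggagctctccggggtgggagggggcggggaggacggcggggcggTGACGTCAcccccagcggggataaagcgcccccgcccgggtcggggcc
HSPA6: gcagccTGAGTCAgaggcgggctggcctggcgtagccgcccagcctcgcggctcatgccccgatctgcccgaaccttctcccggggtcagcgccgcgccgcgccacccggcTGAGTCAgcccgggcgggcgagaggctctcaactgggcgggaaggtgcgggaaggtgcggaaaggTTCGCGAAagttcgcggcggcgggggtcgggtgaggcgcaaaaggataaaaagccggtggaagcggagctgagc
IL11: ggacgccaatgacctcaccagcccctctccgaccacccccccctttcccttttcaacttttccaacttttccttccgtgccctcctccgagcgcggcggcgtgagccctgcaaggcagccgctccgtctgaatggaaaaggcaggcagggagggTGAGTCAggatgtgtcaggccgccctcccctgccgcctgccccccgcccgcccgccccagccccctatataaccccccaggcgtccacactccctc

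CGA held 2 copies of the cyclic AMP response element, starting 142 and 124 bases before the start site, VGF held 1 at 79 bases and PDLIM3 1 at 48 bases. HSPA6 held the AP-1 element at 244 and 139 bases and the heat shock element at 74 bases before the start, and IL11 held the AP-1 element at 96 bases. TFPI2 and DKK1 held none of these letters. The search and the shares cover both strands of 300 bases, the printed stretch and 50 bases after the start, and the hits named here do not overlap. Of the 20 largest rises, 15 had a promoter of this length, 3 of them with TGACGTCA, 2 with TGACTCA and 1 with TTCNNGAA. Of the 20 largest falls, 11 had one. None of those held TGACGTCA or TGACTCA, and 2 held TTCNNGAA, CNTNAP2 and RGS4. TGACGTCA stood in 27 of the 611 promoters of called rises (4.42%), in 9 of 456 of called falls (1.97%), in 373 of 10874 of genes tested (3.43%) and in 540 of all 27305 promoters of this length (1.98%). For TGACTCA the shares were 4.91% of rises, 1.10% of falls, 2.68% of genes tested and 4.92% of all promoters. TTCNNGAA was in 4.75% of rises, 4.17% of falls, 5.83% of genes tested and 7.84% of all promoters. Other arrangements of the heat shock element were not searched, so a promoter without TTCNNGAA may still hold one. These are matches of letters only, described without a test.

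Precursors of secreted neuropeptides and proteins of the dense-core granule moved in both directions. Of 19 such genes tested, 7 rose, 1 fell, and the median change was 0.72, against 0.04 over all genes tested and −0.11 for the same list in shCTRL cells. This list, like the others, was chosen with earlier results of these data known. It holds VGF and CGA, which are among the largest rises, so the count and the median are no independent test. VGF, a granule protein cut into several active peptides, rose from 17.4 and 16.3 to 227 and 479 TPM (4.21 ± 0.49, limma adjusted p = 0.00256). PENK, the precursor of the enkephalin opioid peptides, rose from 1.71 and 1.41 to 13.2 and 15.98 TPM (2.60 ± 0.16, limma adjusted p = 0.000172). SCG2, the granule protein secretogranin II, rose from 26.8 and 31.03 to 135 and 141 TPM (2.22 ± 0.22, limma adjusted p = 0.00128). As in all 838 called rises, both induced libraries stood above both untreated ones in these 3 genes. They did so in 4948 of all 16842 genes tested. In VGF induced replicate 2 held more than 2 times the value of replicate 1.

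TRH, the precursor of thyrotropin-releasing hormone, rose from 0.166 and 0.188 to 2.91 and 5.03 TPM (2.04 ± 0.21), and VIP, vasoactive intestinal peptide, from 0.716 and 0.376 to 5.71 and 7.87 TPM (2.33 ± 0.23). These 5 kept their call without any 1 library and differed from the shCTRL change. CGA and NPY (neuropeptide Y, from 12.4 and 15.1 to 35.6 and 42.2 TPM) lost it without at least 1 library. CHGA, chromogranin A and by far the most abundant transcript of the list, went the other way, from 3272 and 3202 to 1331 and 910.4 TPM (−1.55 ± 0.28, limma adjusted p = 0.0122), a call lost without either untreated replicate and without induced replicate 2. With CHGA in it, the list summed to 4445 to 4569 TPM untreated and to 2824 to 3403 TPM induced while most of its called members rose. Somatostatin (SST) read 113 and 124 TPM before and 92.04 and 76.4 TPM after induction and was not called. CHGB (chromogranin B, 215 and 236 TPM before and 172 and 173 TPM after induction) and GAL (galanin, 287 and 275 TPM before and 539.7 and 418 TPM after induction) were called only with the block, CHGB as lower and GAL as higher (limma adjusted p = 0.0317 and 0.00593, and 0.101 and 0.132 without).

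Of 22 genes tested that are known as outputs of the ERK kinases, many of which restrain that pathway, 9 rose and 1 fell, with a median change of 0.94 in the shRCOR1 line and −0.12 in shCTRL cells, and 5 exceeded the shCTRL change (8 with the block). Among the phosphatases that inactivate ERK, DUSP4 rose from 5.65 and 4.89 to 58.02 and 55.8 TPM (3.21 ± 0.18, limma adjusted p = 0.000111). DUSP5 rose from 2.86 and 3.38 to 22.1 and 39.01 TPM (2.89 ± 0.26, limma adjusted p = 0.000809), and DUSP6 from 8.28 and 7.196 to 59.9 and 59.4 TPM (2.80 ± 0.34, limma adjusted p = 0.00283). DUSP7, of the same cytoplasmic class as DUSP6, was the 1 member that fell, from 22.5 and 25.02 to 10.8 and 12.1 TPM (−0.99 ± 0.11, limma adjusted p = 0.00183). In these 4 genes, as in every called gene, the untreated and induced libraries did not overlap. The same held for 4948 genes upward and 3992 downward of all 16842 genes tested.

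SPRY4, a Sprouty inhibitor of receptor tyrosine kinase signalling, rose from 4.89 and 6.08 to 42.4 and 117 TPM (3.47 ± 0.46, limma adjusted p = 0.00391), with induced replicate 2 well above replicate 1. Its relatives SPRY1 and SPRY2 were not called, at 11.7 and 8.80 TPM before and 10.9 and 13.2 TPM after induction and 27.8 and 25.03 TPM before and 25.5 and 32.8 TPM after induction. HBEGF, a ligand of the EGF receptor, rose from 4.14 and 4.29 to 9.401 and 12.4 TPM (1.18 ± 0.16, limma adjusted p = 0.00396). EPHA2, IER3, CCND1 and LIF also rose, by 0.93 to 1.40, and each lost its call without at least 2 of the 4 libraries. The PEA3 factors ETV4 and ETV5, transcription factors downstream of ERK, read 9.29 and 5.49 TPM before and 43.5 and 47.5 TPM after induction and 29.3 and 26.6 TPM before and 58.4 and 84.2 TPM after induction; neither was called (limma adjusted p = 0.0625 and 0.0619) until the replicate number was a block (0.00522 and 0.0155). Of 24 receptor kinases and co-receptors, 1 rose and 2 fell, beside 4.98% and 3.64% over all genes tested. DDR1 rose from 3.898 and 3.66 to 7.73 and 6.56 TPM. EPHB3 fell from 58.3 and 70.9 to 30.9 and 29.2 TPM and FGFR2 from 34.8 and 33.3 to 24.2 and 15.8 TPM. RET, the GDNF receptor of the neural crest, read 44.98 and 41.1 TPM before and 172 and 213 TPM after induction and was called only with the block (limma adjusted p = 0.0105, and 0.111 without).

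**Figure D2:**
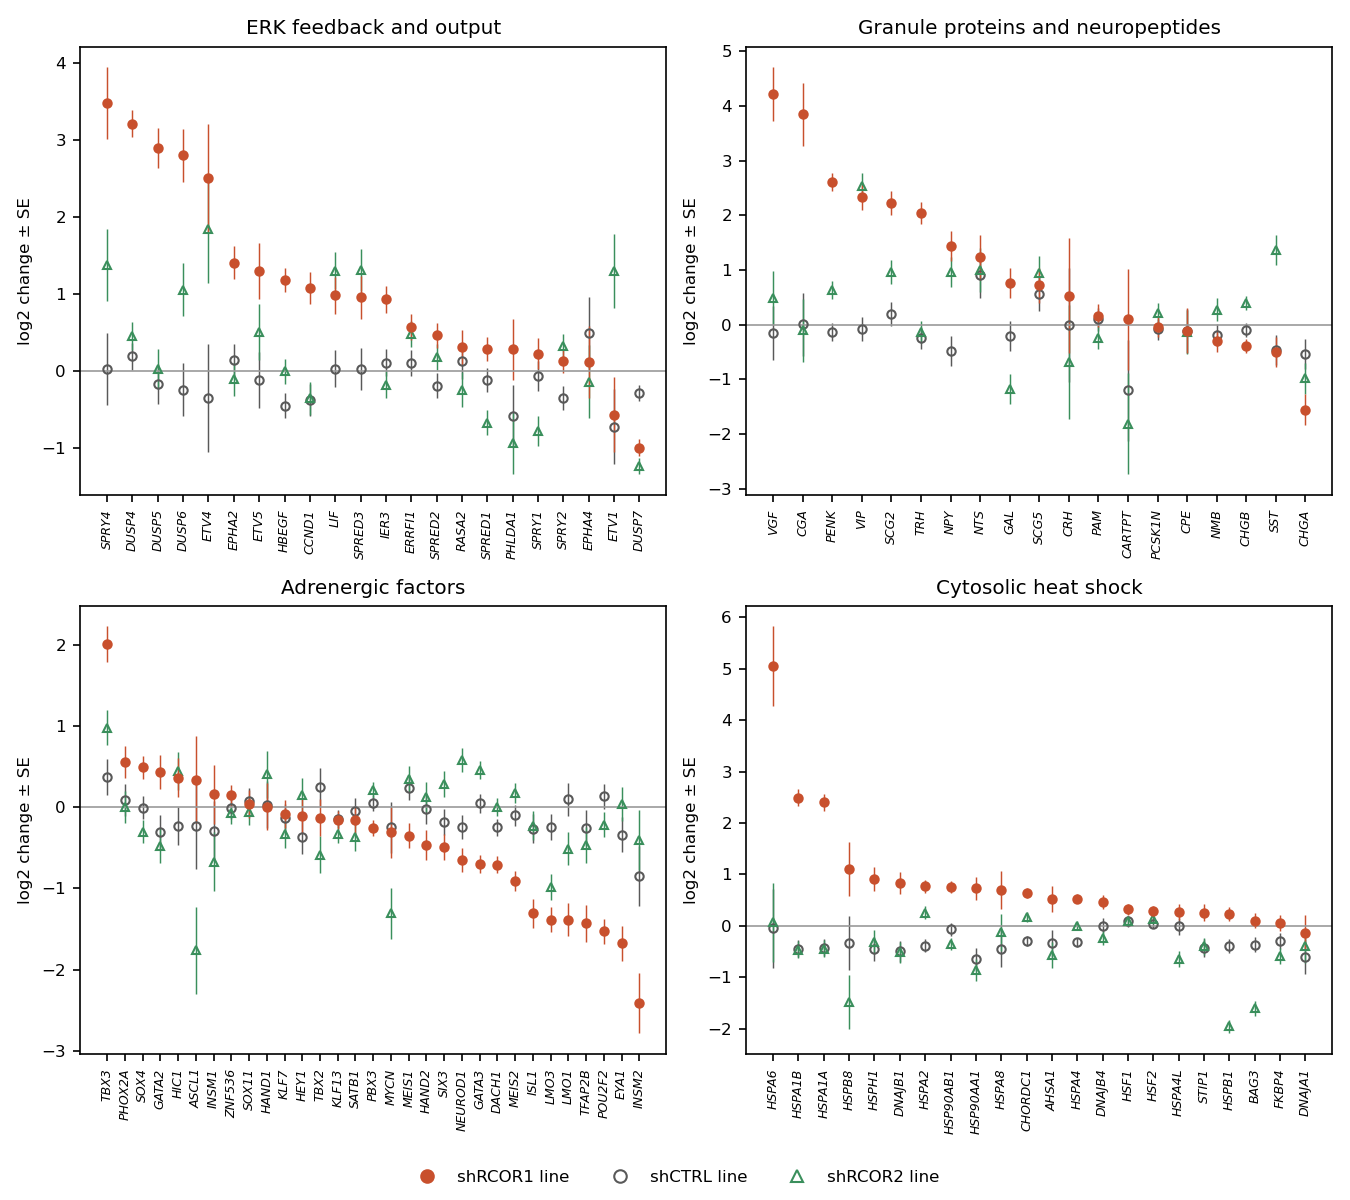
Change in log2(TPM + 1), induced minus untreated, with its standard error, for tested members of 4 gene lists in the shRCOR1 line (filled orange circles), the shCTRL line (open grey circles) and the shRCOR2 line (open green triangles). Called rises in the shRCOR1 line number 9 of 22 in the ERK list, 7 of 19 in the neuropeptide list, 1 of 32 in the adrenergic list and 9 of 22 in the heat shock list, while 12 adrenergic factors were called lower.

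Early response transcription factors and their companions gave 9 rises and no fall among 29 genes tested (median 0.88, and −0.06 in shCTRL cells). FOSL2, a FOS-family partner of JUN in AP-1, rose from 9.96 and 10.8 to 48.8 and 54.7 TPM (2.21 ± 0.12, limma adjusted p = 0.000111), and it fell in induced shRCOR2 cells (−0.79 ± 0.12, limma adjusted p = 0.00584). MAFF, a small MAF protein, rose from 10.3 and 12.4 to 39.1 and 46.5 TPM (1.82 ± 0.22), and the zinc finger factor KLF6 from 19.7 and 16.3 to 51.6 and 68.1 TPM (1.67 ± 0.18). These 3 exceeded the shCTRL change and kept their calls without any 1 library. The other 6 were ATF3, NR4A1, NR4A3, BTG2, DUSP2 and CREM, with rises of 0.80 to 2.15 that each lost the call without 2 or more libraries. The classic early genes did not repeat between untreated replicates: FOS read 202 and 3.85 TPM before and 50.4 and 31.7 TPM after induction, EGR1 113 and 2.57 TPM before and 39.98 and 42.03 TPM after induction and JUN 241 and 29.7 TPM before and 108 and 68.2 TPM after induction. For these 3 the untreated libraries enclosed the induced ones, and none was called.

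Among proteases, their inhibitors and matrix enzymes, 7 of 20 rose, none fell, and the median was 0.71. PLAT, tissue plasminogen activator, rose from 5.58 and 6.12 to 46.4 and 27.8 TPM (2.43 ± 0.22, limma adjusted p = 0.000809), and PLAU, the urokinase activator of plasminogen, rose at a lower level, from 0.126 and 0.359 to 1.37 and 3.64 TPM (1.42 ± 0.35). The metalloproteinase inhibitors rose as well: TIMP2 from 58.6 and 64.1 to 141 and 141 TPM (1.19 ± 0.13, limma adjusted p = 0.00183), TIMP1 from 28.4 and 25.3 to 52.3 and 47.2 TPM and TIMP3 from 1.404 and 1.59 to 5.32 and 9.89 TPM. MMP9, a gelatinase, rose from 0.482 and 0.528 to 3.99 and 5.03 TPM. TFPI2, PLAT and TIMP2 kept their calls without any 1 library and exceeded the shCTRL change.

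Of 22 growth factors and cytokines 4 rose and none fell. EDN1, the vasoconstrictor peptide endothelin 1, rose from 0.203 and 0.383 to 9.44 and 7.97 TPM (2.91 ± 0.16, limma adjusted p = 0.000111), and it exceeded the shCTRL change (2.67 ± 0.23, limma adjusted p = 0.00214). IL11, a cytokine that signals through gp130, rose from 1.64 and 2.93 to 32.04 and 66.5 TPM (3.87 ± 0.56, limma adjusted p = 0.00512), a call lost without untreated replicate 1, with changes from 3.36 to 4.39 over the 4 fits. CXCL12 rose from 4.198 and 3.897 to 9.35 and 8.47 TPM and VEGFA from 80.3 and 95.3 to 184 and 239.7 TPM; VEGFA also stood higher in induced shCTRL cells (0.99 ± 0.28, not called), and the difference was 0.26 ± 0.39 (limma adjusted p = 0.876). DKK1, a secreted inhibitor of Wnt signalling, rose from 29.1 and 33.1 to 406 and 443 TPM (3.73 ± 0.23, limma adjusted p = 0.000133). It rose in the shRCOR2 line too, but by less (2.21 ± 0.23; difference 1.52 ± 0.32, limma adjusted p = 0.0195). DKK1 was 1 of 5 rises among 26 Wnt and Notch regulators, the others being HES1, HES4, ID3 and ID4, whose calls each ended without 3 or more libraries.

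Cell-surface receptors were among the largest rises. APLNR, the receptor of the peptide apelin, rose from 0.118 and 0.206 to 6.92 and 8.58 TPM (2.91 ± 0.17, limma adjusted p = 0.00012), and TNFRSF12A, the receptor of the cytokine TWEAK, from 2.43 and 2.52 to 17.97 and 24.3 TPM (2.66 ± 0.18, limma adjusted p = 0.000193). MAN1A1, a mannosidase that trims N-glycans in the Golgi, rose from 15.4 and 16.03 to 109 and 138 TPM (2.88 ± 0.19, limma adjusted p = 0.000193). The Rab GTPase RAB31 rose from 4.64 and 4.84 to 25.7 and 36.6 TPM and the small GTPase GEM from 20.4 and 15.6 to 94.1 and 95.8 TPM. All 5 exceeded the shCTRL change and kept their calls without any 1 library. SAMD4A, an RNA-binding translational repressor, rose from 0.322 and 0.423 to 6.405 and 9.18 TPM (2.66 ± 0.34) and kept its call. CREB5, a factor that binds cyclic AMP response elements, rose from 2.204 and 2.301 to 25.01 and 28.5 TPM (3.09 ± 0.46), a call lost without untreated replicate 1.

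A list of actins, contractile proteins and targets of the transcription regulators YAP or SRF gave 10 rises and 1 fall among 27 genes tested. Its median was 0.56 in the shRCOR1 line and 0.05 in shCTRL cells. ACTG1, cytoplasmic gamma actin, rose from 1255 and 1414 to 3571 and 4264 TPM (1.55 ± 0.13, limma adjusted p = 0.000533). It exceeded the shCTRL change (1.27 ± 0.18, limma adjusted p = 0.018). ACTB, cytoplasmic beta actin, read 1678 and 1766 TPM before and 2456 and 2375 TPM after induction, a change of 0.49 ± 0.14 that was called only with the block (limma adjusted p = 0.00648, and 0.0652 without). Both actins have many processed copies in the genome, and reads of such copies may have been divided among them.

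MYH9, the heavy chain of non-muscle myosin IIA, rose from 63.3 and 75.3 to 162 and 212 TPM (1.41 ± 0.18, limma adjusted p = 0.00302), and FHL2, a LIM-domain partner of actin regulators, from 7.03 and 6.95 to 25.2 and 32.3 TPM (1.89 ± 0.25, limma adjusted p = 0.00356). ACTN1 (alpha actinin), FLNC (filamin C), CNN1 (calponin), LIMA1, AMOTL2, ANKRD1 and CDC42EP1 also rose, by 0.49 to 3.34, and each lost its call without at least 2 of the libraries. ANKRD1 changed by 1.499 without induced replicate 2 and by 3.73 without induced replicate 1. CALD1, caldesmon, fell from 118 and 119.7 to 47.8 and 63.5 TPM (−1.09 ± 0.18, limma adjusted p = 0.00873). Of this list 2 members exceeded the shCTRL change, and 14 did with the block.

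Of 22 cytosolic heat shock genes, 9 rose in the shRCOR1 line, none fell, and the median was 0.59, against −0.35 in shCTRL and −0.39 in shRCOR2 cells. The near-identical HSPA1A and HSPA1B, the stress-inducible HSP70 pair, rose from 10.1 and 9.31 to 49.9 and 61.7 TPM and from 20.4 and 17.9 to 101 and 124 TPM (2.40 ± 0.17 and 2.49 ± 0.16; limma adjusted p = 0.000253 and 0.000193). Reads may be divided arbitrarily between those copies. HSP90AB1, the constitutive HSP90, rose from 2167 and 2063 to 3719.8 and 3410.1 TPM (0.75 ± 0.12). HSPA4, HSPH1, DNAJB1, CHORDC1, HSPA2 and HSPA6 made up the rest. HSPA1A, HSPA1B, HSPA2, HSPA4 and CHORDC1 exceeded the shCTRL change, and 14 members did with the block. The small heat shock protein HSPB1 (369 and 322 TPM before and 466 and 353 TPM after induction) and the co-chaperone BAG3 (30.0 and 29.5 TPM before and 30.9 and 33.0 TPM after induction), both known to be induced by heat, were not called.

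UBB (chromosome 17, 16380798 to 16382745), a polyubiquitin gene, rose from 503 and 523 to 808 and 829.9 TPM (0.67 ± 0.13, limma adjusted p = 0.0171), a call lost in each fit without 1 library. In the shRCOR2 line UBB fell (−0.60 ± 0.13, limma adjusted p = 0.0203), and the difference between both changes was 1.27 ± 0.19, limma adjusted p = 0.00556. Ubiquitin repeats are alike in sequence, so reads may be shared among ubiquitin genes.

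The most abundant called falls and rises named further housekeeping transcripts. EEF2 (translation elongation factor 2) rose from 2565 and 2479 to 3593 and 3872 TPM, EIF1 from 705 and 602 to 1030.0 and 1034 TPM, PABPC1 (poly(A)-binding protein) from 1124 and 1158 to 1569.6 and 1743 TPM and HSPD1 (mitochondrial HSP60) from 884 and 846 to 1308 and 1166 TPM. The ribosomal protein transcripts RPL6 and RPL17 fell, from 3470.0 and 3441 to 2129 and 2232 TPM and from 1272 and 1234 to 757 and 827 TPM, and both went below the shCTRL change (−0.90 ± 0.16, limma adjusted p = 0.041; −0.98 ± 0.15, limma adjusted p = 0.0221). LDHB, a lactate dehydrogenase subunit, fell from 2322 and 2280.5 to 1557 and 1474 TPM, and the linker histone H1-10 from 796 and 639 to 491 and 358 TPM. CRABP1, a cytoplasmic retinoic acid-binding protein, rose from 268 and 273 to 603 and 779 TPM (1.34 ± 0.17, limma adjusted p = 0.00345) and exceeded the shCTRL change. RGS4 and RGS5, neighbours on chromosome 1 whose products switch off G proteins, fell from 1592 and 1594 to 614 and 401 TPM and from 3047 and 3367 to 1216 and 1068 TPM (−1.68 ± 0.33 and −1.49 ± 0.18). Among the most abundant called genes, RGS5, ACTG1, CRABP1 and ATF4 kept their call without any 1 library.

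**Figure D3:**
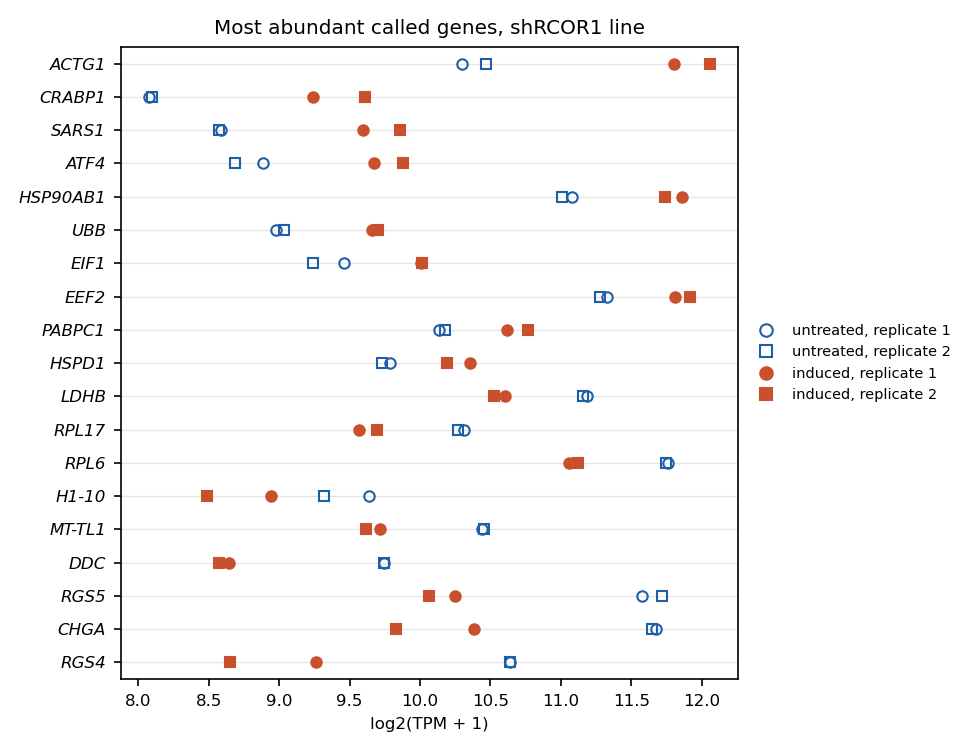
Abundance, as log2(TPM + 1), of the most abundant called rises and falls of the shRCOR1 line, ordered by change, 1 symbol per library (open blue untreated, filled orange induced, circles replicate 1, squares replicate 2). ACTG1, from 1255 and 1414 to 3571 and 4264 TPM, shows the largest rise of the genes drawn and RGS4, from 1592 and 1594 to 614 and 401 TPM, the largest fall; the axis does not start at 0.

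Transcription factors of the adrenergic state, which hold neuroblastoma cells in a sympathetic neuron-like identity, fell more often than they rose. Of 32 tested, 12 fell and 1 rose, with a median of −0.28 (−0.11 in shCTRL cells). INSM2, a zinc finger repressor of neuroendocrine cells, fell from 402 and 324 to 101 and 43.9 TPM (−2.42 ± 0.37, limma adjusted p = 0.00647), a call lost without untreated replicate 1, with changes from −3.01 to −1.82. EYA1, a transcriptional co-activator of the eyes absent family, fell from 54.05 and 59.3 to 20.3 and 14.2 TPM (−1.68 ± 0.21, limma adjusted p = 0.00327). POU2F2, an octamer-binding factor, fell from 29.4 and 25.9 to 9.05 and 8.78 TPM (−1.53 ± 0.15, limma adjusted p = 0.00134). The induced libraries lay below the untreated ones in each, as in all 613 called falls and in 3992 of all 16842 genes tested. POU2F2 alone of the 12 went below the shCTRL change without the block (−1.67 ± 0.22, limma adjusted p = 0.0146); with it, 10 members did.

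ISL1, a LIM-homeodomain factor of sympathetic neurons, fell from 76.3 and 87.5 to 38.2 and 27.6 TPM (−1.30 ± 0.18, limma adjusted p = 0.00428). The LIM-only cofactors LMO1, a known neuroblastoma susceptibility gene, and LMO3 fell from 74.4 and 75.6 to 32.5 and 24.3 TPM and from 18.5 and 15.6 to 5.62 and 6.21 TPM (−1.38 ± 0.20 and −1.38 ± 0.16). MEIS2, TFAP2B, GATA3, DACH1 and NEUROD1 fell by 0.64 to 1.43. EYA1, POU2F2, ISL1, LMO1, LMO3 and MEIS2 kept their calls without any 1 library. The single rise was TBX3, a T-box repressor, from 39.2 and 46.3 to 168 and 182 TPM (2.01 ± 0.22, limma adjusted p = 0.00183), which exceeded the shCTRL change (1.64 ± 0.31, limma adjusted p = 0.0478).

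The remaining core factors were not called. MYCN read 2835 and 2826 TPM before and 2190.4 and 2385 TPM after induction, HAND1 258 and 267 TPM before and 346 and 201 TPM after induction and GATA2 411 and 461 TPM before and 633 and 553 TPM after induction. HAND2 read 778 and 811 TPM before and 617 and 537 TPM after induction and was called as lower only with the block (limma adjusted p = 0.0379, and 0.161 without). PHOX2A, a homeodomain factor, read 288 and 238 TPM before and 469.8 and 320.1 TPM after induction and was called as a rise only with the block (limma adjusted p = 0.00289, and 0.121 without). MYCN, the most abundant member of the list, gave −0.31 ± 0.31 (limma adjusted p = 0.627).

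Of 27 factors and markers of the opposing mesenchymal state, 3 rose and 1 fell, with a median of 0.46 (0.01 in shCTRL cells). The rises were ID1 (from 31.97 and 19.8 to 92.3 and 104 TPM), SNAI1 (from 13.4 and 12.04 to 19.5 and 26.3 TPM) and TEAD4 (from 40.6 and 37.7 to 62.2 and 59.3 TPM), each lost without at least 1 library. TWIST1, a helix-loop-helix factor of the same state, fell from 129.5 and 119 to 63.5 and 60.4 TPM (−0.99 ± 0.12, limma adjusted p = 0.00303). VIM, vimentin, read 75.4 and 116 TPM before and 180.4 and 339.6 TPM after induction and SOX9 4.96 and 5.65 TPM before and 9.23 and 20.1 TPM after induction; both were called with the block only (limma adjusted p = 0.00175 and 0.00455, and 0.16 and 0.0763 without). With the block 12 members rose and 2 fell. No member differed from the shCTRL change without the block, and 6 did with it.

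Enzymes of catecholamine metabolism gave 4 falls and no rise among 17 genes tested. DDC, which makes dopamine from L-DOPA, fell from 857 and 858 to 399 and 379 TPM (−1.14 ± 0.27, limma adjusted p = 0.036), and MAOA, which breaks catecholamines down, from 155 and 203 to 78.9 and 75.8 TPM (−1.19 ± 0.23, limma adjusted p = 0.0178). QDPR and PTS, of the tetrahydrobiopterin cofactor pathway, fell from 173 and 167 to 86.1 and 81.2 TPM and from 67.3 and 80.9 to 44.97 and 49.9 TPM. QDPR kept its call without any 1 library. TH and DBH, the defining enzymes of noradrenaline synthesis, read 532 and 735 TPM before and 373 and 589.7 TPM after induction and 1158 and 1119 TPM before and 990.0 and 764 TPM after induction and were not called.

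Other neuronal and signalling genes led the falls. NCALD (ENSG00000104490.18, chromosome 8, 101686542 to 102124907), the calcium sensor neurocalcin delta, fell from 33.7 and 33.8 to 5.43 and 5.21 TPM (−2.46 ± 0.09, limma adjusted p = 9.46e-06), below its shCTRL change (−2.11 ± 0.13, limma adjusted p = 0.000659). Its relative HPCA (hippocalcin) fell from 17.7 and 19.2 to 10.3 and 8.86 TPM and a further relative, HPCAL1, rose from 31.3 and 32.9 to 99.6 and 151 TPM (1.90 ± 0.17, limma adjusted p = 0.000809), the opposite direction. GRK5, a kinase that desensitises G protein-coupled receptors, fell from 11.5 and 12.2 to 3.77 and 3.73 TPM (−1.44 ± 0.14, limma adjusted p = 0.00091). CNTNAP2, a neuronal adhesion protein of the neurexin family, fell from 124 and 129 to 42.5 and 37.6 TPM (−1.64 ± 0.22). MARCKSL1, a substrate of protein kinase C, fell from 539.9 and 475 to 166 and 142 TPM, the neuronal phosphatase-related PLPPR4 from 87.8 and 104 to 33.4 and 24.3 TPM and the kinase PAK5 from 10.6 and 10.1 to 2.45 and 3.03 TPM.

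PIGS, a subunit of the enzyme that attaches GPI anchors, fell from 67.1 and 78.5 to 22.8 and 25.8 TPM and read 72.01 and 77.9 TPM without and 80.6 and 83.9 TPM with doxycycline in shCTRL cells (−1.67 ± 0.15, limma adjusted p = 0.00273). MAB21L1 fell from 120.1 and 116 to 46.1 and 38.2 TPM (−1.56 ± 0.20, limma adjusted p = 0.013), the sulfotransferase CHST2 from 39.7 and 35.7 to 10.8 and 10.9 TPM (−1.70 ± 0.29, limma adjusted p = 0.0329) and the deubiquitinase STAMBPL1 from 11.9 and 11.8 to 4.22 and 4.35 TPM (−1.62 ± 0.22, limma adjusted p = 0.0166). HIGD1A, a small protein of the inner mitochondrial membrane, fell from 84.95 and 81.7 to 25.9 and 27.04 TPM (difference −1.32 ± 0.16, limma adjusted p = 0.0108). EPAS1, which encodes HIF-2 alpha, fell from 248 and 279 to 82.9 and 57.9 TPM while HIF1A, its paralog, rose from 185 and 187 to 418 and 445 TPM; HIF1A exceeded its shCTRL change (1.41 ± 0.18, limma adjusted p = 0.0131).

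Of 25 genes of the hypoxia response, 8 rose and EPAS1 fell, with a median of 0.56 (0.01 in shCTRL cells). Besides HIF1A and VEGFA, the rises were PFKFB3 (from 3.505 and 5.17 to 14.4 and 27.7 TPM), which makes an activator of glycolysis, BHLHE40 (from 9.63 and 11.6 to 33.02 and 56.7 TPM), ADM, BNIP3, LOX and MXI1. HIF1A alone of these rises kept its call without any 1 library. In glycolysis itself 3 of 20 rose (HK1, HK2 and PGK1) and 2 fell (LDHB and the lactate carrier SLC16A1), by 0.72 at most. Of 42 nuclear-encoded respiratory chain subunits 4 fell and none rose (17 fell with the block). Over all genes tested 3.64% fell, and 12.1% with the block. SDHC, a membrane anchor of complex II, fell from 198 and 180.0 to 87.3 and 90.4 TPM (−1.08 ± 0.12, limma adjusted p = 0.00203) and below its shCTRL change (−0.96 ± 0.17, limma adjusted p = 0.0376). None of the 15 mitochondrially encoded mRNA and rRNA genes of the list was called, and 6 fell with the block. The list leaves out the mitochondrial tRNA genes, so that count does not cover them.

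The integrated stress response, the programme in which ATF4 raises amino acid synthesis and transport genes, had a positive median in both the shRCOR1 and the shCTRL line. In shRCOR1 cells 16 of 34 members rose, none fell, and the median was 1.06; in shCTRL cells the median was 0.81 and none was called. No member differed from the shCTRL change without the block, and 2 were higher and 1 lower with it. ATF4 rose from 472 and 411 to 817 and 941 TPM (0.99 ± 0.12, limma adjusted p = 0.00269) and read 468 and 464 TPM without and 639 and 709.5 TPM with doxycycline in shCTRL cells. ASNS, asparagine synthetase, rose from 153 and 155 to 390.4 and 579 TPM and read 126 and 273 TPM without and 393 and 724 TPM with doxycycline in shCTRL cells, a difference of 0.10 ± 0.56, limma adjusted p = 0.977. The subunits of the large neutral amino acid carrier, SLC7A5 and SLC3A2, rose from 119.8 and 136 to 371 and 457 TPM and from 151 and 147 to 367 and 410.3 TPM. ATF4, SLC7A5 and SLC3A2 kept their call without any 1 library. In the endoplasmic reticulum, 1 of 21 chaperones and sensors rose, XBP1 (from 113 and 112 to 239 and 252 TPM), and 11 did with the block. Over all genes tested 4.98% rose, and 15.4% with the block. Of 23 genes of the antioxidant factor NRF2, 4 rose: SQSTM1 (from 45.6 and 44.05 to 90.2 and 107 TPM), ABCC4 (from 18.6 and 19.4 to 32.6 and 32.8 TPM), GCLM and TKT.

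**Figure D4:**
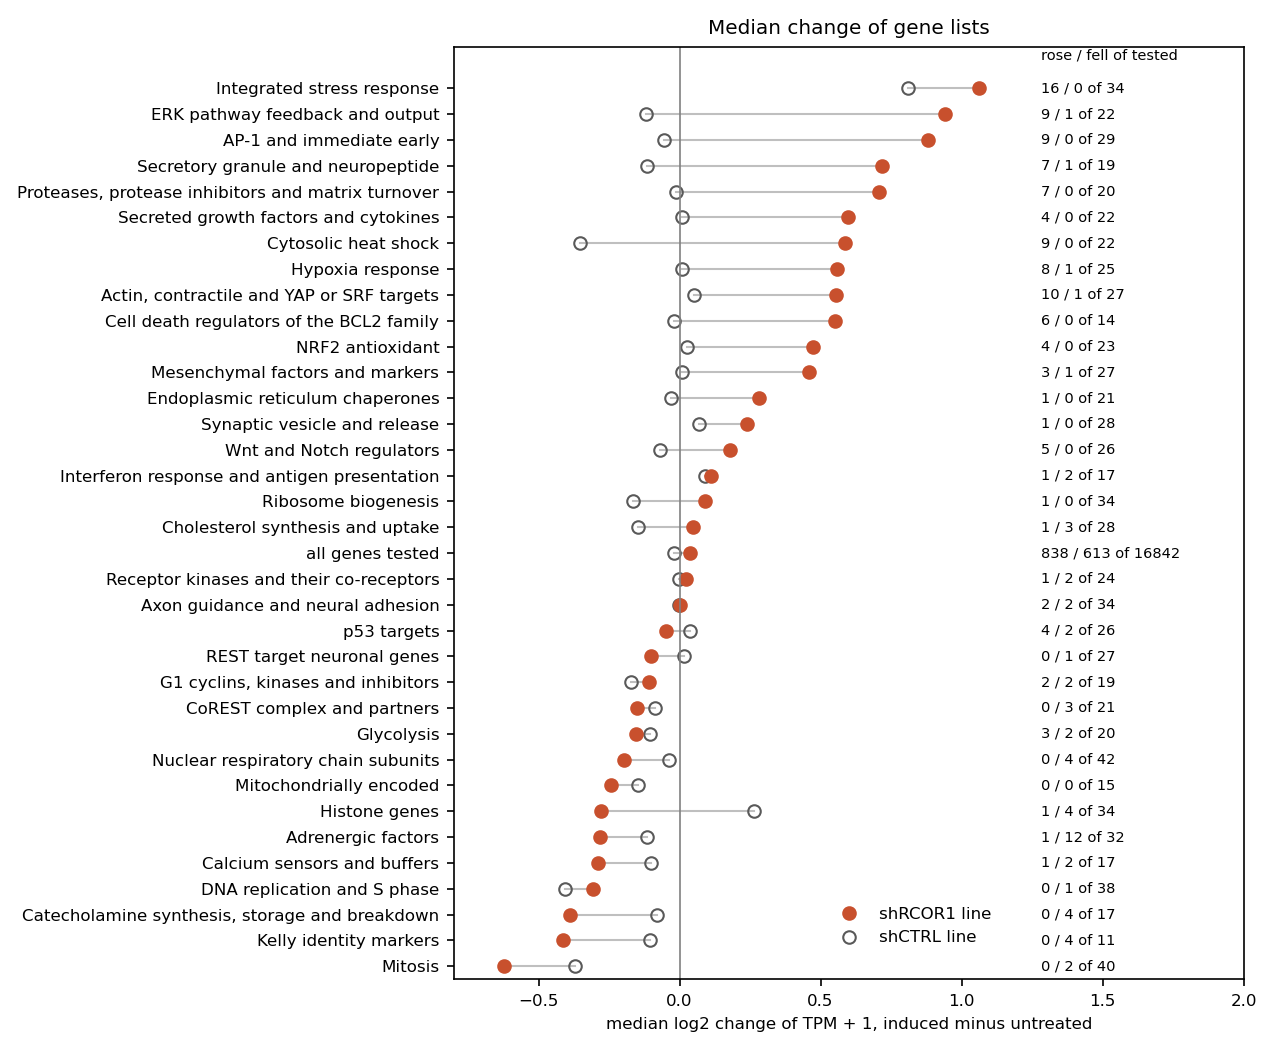
Median change in log2(TPM + 1), induced minus untreated, of each gene list with at least 10 tested members and of all genes tested, in the shRCOR1 line (filled orange) and the shCTRL line (open grey); the numbers at right count the called rises and falls in the shRCOR1 line. The integrated stress response list lies at 1.06 and 0.81 in the lines, whereas the ERK list lies at 0.94 and −0.12.

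Among regulators of mitochondrial cell death, 6 of 14 rose and none fell. They included both guards and killers. BCL2, which blocks cell death, rose from 5.19 and 5.42 to 14.8 and 17.1 TPM (1.42 ± 0.24, limma adjusted p = 0.00937) and MCL1, of the same class, from 138 and 122 to 217 and 273 TPM (0.90 ± 0.17, limma adjusted p = 0.0149). The BH3-only killers BBC3 (PUMA) and PMAIP1 (NOXA) rose from 11.1 and 9.53 to 49.3 and 55.2 TPM (2.23 ± 0.21, limma adjusted p = 0.00089) and from 24.1 and 23.8 to 46.7 and 53.8 TPM (1.03 ± 0.11, limma adjusted p = 0.00183). BCL2L11 (BIM) and BOK rose by 0.67 and 0.59. With the block 6 rose and 5 fell, and BBC3 and PMAIP1 kept their calls without any 1 library. None of the 14 was called different from the shCTRL change (BBC3 1.36 ± 0.29, limma adjusted p = 0.069), and with the block 5 were higher and 1 lower.

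BBC3 is also a target of p53, and the p53 list of 26 tested genes gave 4 rises and 2 falls. CDKN1A (p21), an inhibitor of cyclin-dependent kinases, rose from 36.9 and 41.8 to 70.4 and 85.3 TPM. DDB2 and FDXR fell, from 15.3 and 17.6 to 8.64 and 8.96 TPM and from 42.2 and 43.9 to 26.5 and 26.99 TPM, and went below the shCTRL change (−1.06 ± 0.20, limma adjusted p = 0.0478; −0.82 ± 0.14, limma adjusted p = 0.0323). In the shRCOR2 line DDB2 and FDXR rose (0.92 ± 0.14 and 1.26 ± 0.10).

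Of 40 mitotic genes 2 fell in shRCOR1 cells, CCNA2 (cyclin A2, from 118 and 87.8 to 47.8 and 26.4 TPM) and CENPF (from 165 and 157 to 125 and 87.9 TPM). With the block 34 fell. Over all genes tested 3.64% fell, and 12.1% with the block. The median of the mitotic list was −0.62, and −0.37 in shCTRL cells. No member differed from the shCTRL change without the block, and 2 did with it. The 38 S-phase genes tested had medians of −0.31 and −0.41. Among G1 regulators CCND1 (cyclin D1) and CDKN1A rose and CDK6 and RB1 fell, of 19 tested.

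The median change of histone transcripts was −0.28 in shRCOR1, 0.26 in shCTRL and 0.58 in shRCOR2 cells. Of 34 tested, 1 rose, H4C3, and 4 fell, H2AC13, H4C11 and H4C12 among them. Of the list 1 member went below the shCTRL change, and 7 did with the block. The copies of histone H4 encode the same protein and may share reads. Replication-dependent histone messages lack a poly(A) tail, and the sources used here do not say whether poly(A) selection was used.

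Of 27 neuronal genes tested that are known as targets of REST, none rose and 1 fell, NEFL (neurofilament light chain, from 47.3 and 39.9 to 28.8 and 29.2 TPM), beside 4.98% and 3.64% over all genes tested. TUBB3, neuronal beta tubulin, read 656 and 632 TPM before and 573 and 629 TPM after induction and SNAP25, of the synaptic fusion machinery, 47.4 and 50.7 TPM before and 57.3 and 60.4 TPM after induction. Among synaptic release genes 1 of 28 rose, SYT11 (from 74.6 and 68.5 to 125 and 125 TPM). Axon guidance and neural adhesion genes gave 2 rises (PLXNA2 and UNC5B) and 2 falls (NRP2 and CNTNAP2) of 34. TTCAGCACC, the left part of the element that REST binds, stood in none of the 611 promoters of rises, in 2 of 456 of falls and in 35 of 10874 of genes tested (0.322%). GGACAG, the right part, stood in 134 of the 611 promoters of rises (21.93%) and in 84 of 456 of falls (18.42%). Among genes tested GGACAG stood in 2180 of 10874 (20.05%). Neither part is the whole element, and these counts were not tested.

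Counts for 3 further lists, beside 4.98% rises and 3.64% falls over all genes tested, were as follows. Calls were made in ribosome biogenesis (1 rise, DDX21, of 34), cholesterol synthesis and uptake (1 rise and 3 falls, LSS and STARD4 among them, of 28) and interferon response (1 rise, ISG20, and 2 falls, IFI6 and IRF7, of 17). IFI6, an interferon-inducible protein, fell from 11.8 and 12.9 to 2.66 and 3.05 TPM (−1.79 ± 0.24, limma adjusted p = 0.00396) and kept its call without any 1 library.

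Among long non-coding RNAs the largest called rises were LINC02691 (from 1.17 and 0.9804 to 5.29 and 9.08 TPM), LINC02073 (from 0.0648 and 0.133 to 1.88 and 2.69 TPM), ARLNC1, PHKA2-AS1 and LINC01711, all under 10 TPM. LINC02073 exceeded the shCTRL change (1.59 ± 0.23, limma adjusted p = 0.0208) and kept its call without any 1 library. AL133163.3 led the falls, from 57.3 and 59.97 to 18.5 and 13.9 TPM (−1.81 ± 0.17, limma adjusted p = 0.00091), followed by AC078950.1, RGS5-AS1 (from 7.36 and 8.45 to 2.26 and 2.01 TPM), KIF25-AS1 and KCNH1-IT1. RGS5-AS1 is named as antisense to RGS5, which fell as well. The library kit keeps the strand, but the sources used here do not say whether the counting used it, so reads of the pair may be mixed.

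The change in the shRCOR1 line was compared with that in the shRCOR2 line by an interaction test, since RCOR2 fell in both (−1.42 ± 0.11 in the shRCOR2 line). The shRCOR1 change was higher for 1005 genes (5.97%) and lower for 875 (5.2%), or 2483 (14.7%) and 2642 (15.7%) with the block, and leaving out 1 library gave 693 to 1132 differences in place of 1880. Higher differences made up 53.5% of these calls and 40.1% with FPKM in place of TPM. In the shRCOR2 line 1316 genes rose (7.81%) and 1090 fell (6.47%). Of the 838 shRCOR1 rises, 104 (12.4%; 7.90% of the shRCOR2 rises) also rose there and 96 (11.5%; 8.81% of the shRCOR2 falls) fell. Of the 613 shRCOR1 falls, 110 (17.9%; 10.1% of the shRCOR2 falls) also fell and 80 (13.1%; 6.08% of the shRCOR2 rises) rose.

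Named genes with opposite calls include several already described. PLAT went from 5.58 and 6.12 to 46.4 and 27.8 TPM in the shRCOR1 line and from 6.203 and 6.05 to 1.81 and 2.19 TPM in the shRCOR2 line (difference 3.68 ± 0.31, limma adjusted p = 0.000873). HIF1A went from 207 and 183 to 75.99 and 84.3 TPM in the shRCOR2 line (difference 2.48 ± 0.18, limma adjusted p = 0.000595). SLC7A5 fell there from 119 and 136 to 45.5 and 46.6 TPM (3.13 ± 0.29, limma adjusted p = 0.00112). ACTN1, GEM, RAB31, CRABP1 and MCL1 likewise rose in the shRCOR1 line and fell in the shRCOR2 line. GATA3, NEUROD1, FDXR, PTS and UTRN fell in the shRCOR1 line and rose in the shRCOR2 line. VIP rose in both lines, by 2.33 and 2.54, and DUSP7 fell in both, with changes of −0.99 and −1.23; their differences were not called (−0.21 ± 0.32 and 0.24 ± 0.15).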

How the data were processed

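RNA was sequenced from 12 libraries of Kelly neuroblastoma cells (directional RNA libraries, per the labels' protocols), 4 of them from the shRCOR1 line. The authors deposited StringTie gene tables; the submitters' processing notes name Trim Galore 0.6.7, HISAT2 2.2.1, StringTie 2.1.7 and the build GRCh38/hg38. Which annotation release was used, whether strand was used and how multiply matching reads were treated is not stated in those notes or the labels. The deposited TPM values, per the file headers, were summed per gene ID (60660 IDs, 1000000 TPM per library). The deposited FPKM values served as an alternative, and the authors' coverage signal, divided by FPKM, gave the relative depth (a 2.12-fold range over the 12 libraries). Absolute depth is unknown, so no counting intervals are given.

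Genes were tested with limma 3.58.1 in R 4.3.3 with an abundance trend in the prior variance, on log2(TPM + 1), for genes with at least 1 TPM in at least 2 libraries. All 12 libraries shared 1 estimate of the spread. Interaction contrasts compared the shRCOR1 change with the shCTRL and shRCOR2 changes. Adjusted p-values are Benjamini-Hochberg over all genes tested, with 0.05 as the threshold. Tables and motif searches used Python 3.11.15, numpy 2.4.6 and pandas 2.3.3. The fit was tested on simulated data with independent noise and no replicate effect. That test therefore does not cover deviations shared by same-numbered libraries. Same-numbered libraries deviated together in all 15 pairs of groups (r from 0.372 to 0.750), so the replicate numbers pair the samples. The main fit left this shared deviation in the spread, and the block was an alternative.

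Genes are named by this rule: RCOR1 to RCOR3; the 20 largest called rises and falls without overlap; the 10 most abundant called in each direction; members of the gene lists; the 10 highest and lowest called differences from shCTRL and from shRCOR2; and the 5 largest called rises and falls of long non-coding RNAs. A few genes that the rule would name are not reported here. The comparison, the gene lists and the motifs were chosen with earlier results of these data known.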

Additional observations from a re-analysis of the deposited data

Results flagged for a closer look

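The change in the shRCOR1 line differed from that in the shCTRL line for 216 genes by limma's interaction test, 36 of them in the gene lists. The 10 highest differences, in log2(TPM + 1), were TFPI2 7.70, VGF 4.36, DKK1 3.64, SPRY4 3.45, DUSP5 3.06, DUSP6 3.04, DUSP4 3.02, HSPA1B 2.93, MAN1A1 2.86 and HSPA1A 2.83. Among the lowest were NCALD −2.11, CHST2 −1.70, PIGS −1.67, POU2F2 −1.67, STAMBPL1 −1.62, MAB21L1 −1.56, TMEM183B −1.56, AL133163.3 −1.55 and GRK5 −1.49. TMEM183B is a retrogene of TMEM183A and may share its reads.

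The difference from the shRCOR2 line was called for 1880 genes, 175 of them in the lists. The 10 highest were TFPI2 7.77, HSPA6 4.98, CGA 3.95, VGF 3.73, PLAT 3.68, GEM 3.58, PDLIM3 3.56, CREB5 3.48, IL11 3.45 and RAB31 3.40. The 10 lowest were AC078950.1 −2.96, TG −2.74, FZD5 −2.60, SHOX2 −2.54, UTRN −2.52, AC005746.2 −2.51, AC027644.3 −2.50, SYS1-DBNDD2 −2.45, TP53I3 −2.44 and IGFLR1 −2.33. FZD5, a Wnt receptor, read 6.03 and 5.59 TPM before and 2.64 and 1.87 TPM after induction in the shRCOR1 line and 4.89 and 4.27 TPM without and 9.19 and 24.3 TPM with doxycycline in the shRCOR2 line. SYS1-DBNDD2 is a readthrough of neighbouring genes and shares their reads.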

How the results depend on the processing

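No change of a named called gene reversed under any alternative. Of 216 such genes, calls were lost by 7 with a pseudocount of 0.1, 53 without the filter, 13 with FPKM, 29 with mitochondrial genes left out, 31 with median-of-ratios scaling and 75 with only the shRCOR1 line fitted. With the replicate block none was lost, and the genes called rose from 1451 to 4620 in the shRCOR1 line, from 216 to 1712 in the difference from shCTRL and from 1880 to 5125 in that from shRCOR2. Fitting only the lines compared gave 585 genes in the shRCOR1 line, 18 in the difference from shCTRL, and RCOR1 at −0.71 (limma adjusted p = 0.0823); fewer libraries estimate the spread there. Without the filter 350 genes differed from shCTRL.

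Leaving out 1 library in turn gave 326 to 694 genes, 26 to 173 against shCTRL, 693 to 1132 against shRCOR2, RCOR1 from −0.77 to −0.65 and RCOR2 from −0.95 to −0.92. A group then holds 1 library, assumed to vary like the others. The RCOR2 call held in all of these fits. Depth is known only relative to the other libraries, so the limit it sets on low genes cannot be given.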
